A study of Homo sapiens with 8 samples.

Results

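HP1b (HP1β, the product of CBX1) was mapped by ChIP-seq in MCF10A cells in which HP1a (HP1α, the product of CBX5) had been knocked down, and its peaks were compared with those of HP1b in wild-type MCF10A cells. MCF10A is a non-tumorigenic line of human breast epithelial cells. The comparison took every broad peak on chromosomes 1 to 22 from 2 libraries of the HP1a knockdown and 2 libraries of the wild type. These lists held 814428 peaks, of 1157865 on those chromosomes in the 8 libraries of the series. The other 4 libraries are HP1a ChIP in HP1b knockdown and in wild type. They serve below as readouts of HP1a and enter the alternative with all 8 libraries in 1 fit. The last base of each chromosome was also taken from the peaks of all 8 lists. The labels name no treatment other than the knockdown for either group of HP1b libraries. How HP1a was knocked down, in how many clones and to what remaining level is not stated in the labels. Peak lists hold no expression or protein level, so the knockdown itself could not be checked. The labels number the libraries of a group as replicates 1 and 2 and do not say that they came from separate cultures, so p-values measure only the spread between these libraries.

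HP1 proteins are structural components of heterochromatin. Their chromodomain binds methylated histone H3, and their chromoshadow domain forms dimers and recruits partner proteins, among them corepressors of zinc finger transcription factors. HP1α and HP1β are paralogs that are found together at pericentromeric and other silent chromatin, and HP1β is also found in euchromatin.

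HP1b peaks seldom met promoters, and the few that changed are shown by sequence because they give the exact DNA at which a peak was listed in both libraries of a group and in neither library of the other. A promoter window was 300 bases of RefSeq sequence (GRCh38.p14), from 250 bases before a gene's start to 50 after it. Of 21156 windows of 15101 genes, 50 (0.236%) were gained, with a peak in both HP1a knockdown libraries and in neither wild-type library. In the opposite direction 82 windows (0.388%) were lost, and 15 (0.0709%) were kept, with a peak in all 4 libraries. Neither class can be called the larger: with only strong peaks (−log10 p of 4 or more) 18 windows were gained and 9 lost, and with lists of equal length 49 were gained and 39 lost. Without knockdown replicate 1 or 2, where a peak in the remaining library was enough, 416 or 197 windows were gained and 93 or 110 lost, and without wild-type replicate 1 or 2, 81 or 75 were gained and 652 or 495 lost. Below are the 250 bases before the start, 5′ to 3′ on the strand of the gene, for windows that peaks covered wholly, with CpG dinucleotides in capitals. The lost ones are RIPOR2 (an inhibitor of the small GTPase RhoA, chr6:24877271-24877520, minus strand) and RNASE11 (of the ribonuclease A family, chr14:20590258-20590507, minus strand). The gained ones are AKAIN1 (an inhibitor of protein kinase A anchoring, chr18:5197692-5197941, minus strand) and PCDHGB4 (a clustered protocadherin, chr5:141387635-141387884, plus strand). The kept one is CCL8 (a chemokine, chr17:34319185-34319434, plus strand), the only kept window that was wholly covered.
RIPOR2: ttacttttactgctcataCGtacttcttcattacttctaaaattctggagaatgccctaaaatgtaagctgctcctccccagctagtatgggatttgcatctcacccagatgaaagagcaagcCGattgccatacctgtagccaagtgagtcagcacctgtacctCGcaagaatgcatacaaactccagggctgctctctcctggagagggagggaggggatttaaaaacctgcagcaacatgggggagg
RNASE11: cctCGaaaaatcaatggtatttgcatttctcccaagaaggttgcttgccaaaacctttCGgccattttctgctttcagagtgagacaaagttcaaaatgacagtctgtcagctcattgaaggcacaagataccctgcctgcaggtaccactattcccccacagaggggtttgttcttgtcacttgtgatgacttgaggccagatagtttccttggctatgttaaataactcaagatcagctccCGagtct
AKAIN1: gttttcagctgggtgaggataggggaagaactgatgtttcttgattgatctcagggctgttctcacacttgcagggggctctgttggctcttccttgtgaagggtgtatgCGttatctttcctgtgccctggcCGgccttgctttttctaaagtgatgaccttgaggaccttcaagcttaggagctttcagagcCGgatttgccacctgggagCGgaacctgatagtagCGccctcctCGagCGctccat
PCDHGB4: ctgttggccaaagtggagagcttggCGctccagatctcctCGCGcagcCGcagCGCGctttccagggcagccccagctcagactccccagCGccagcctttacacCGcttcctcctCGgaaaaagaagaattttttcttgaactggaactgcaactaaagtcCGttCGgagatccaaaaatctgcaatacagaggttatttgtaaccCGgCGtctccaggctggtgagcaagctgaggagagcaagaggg
CCL8: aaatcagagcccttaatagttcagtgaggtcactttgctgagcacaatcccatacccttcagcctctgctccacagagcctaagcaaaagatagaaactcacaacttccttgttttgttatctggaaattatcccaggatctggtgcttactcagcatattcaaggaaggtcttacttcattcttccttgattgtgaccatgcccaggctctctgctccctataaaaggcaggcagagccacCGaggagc

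The gained AKAIN1 and PCDHGB4 sequences hold 7 and 13 CpG, the lost RIPOR2 and RNASE11 sequences hold 3 each, and the kept CCL8 sequence holds 1. The next wholly covered windows by fold, of C19orf18 among the gained and MPP2 among the lost, hold 2 and 0, so that these few sequences show no order between the classes. Over whole windows the median number of CpG was 7 in gained, 5.5 in lost and 6 in kept windows, against 21 in all windows. Median GC content was 54.0% in gained, 54.7% in lost and 50.3% in kept windows, against 62.7% in all. Windows met by a peak were therefore poorer in CpG whether they were gained, lost or kept. The HP1a knockdown libraries listed 1.53% and 2.88% of windows, against 3.07% and 3.78% in the wild-type libraries.

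Read depth is unknown, since peak lists give none. The 4 lists differed in length, in width and in where the peaks fell relative to genes. There were 149432 and 213115 peaks in the HP1a knockdown, against 225115 and 226766 in the wild type. Both knockdown lists were shorter than both wild-type lists, and replicate 1 of the knockdown stood apart from the other 3. Peaks covered 111.2 and 156.1 Mb in the HP1a knockdown, against 148.8 and 148.6 Mb in the wild type, so that the groups overlapped. The mean was 134 ± 31.7 Mb in the knockdown and 149 ± 0.135 Mb in the wild type (SD, n = 2 each; exact permutation test, two-sided, p = 1). Peaks of 4 kb or wider, the broad domains of these lists, numbered 789 and 1401 in the HP1a knockdown, against 490 and 444 in the wild type. Both knockdown libraries held more of them although their lists were shorter. The ratio of the means was 2.34 (exact permutation test, two-sided, p = 0.333, the smallest that 2 against 2 libraries allow). Median peak width was 573 and 554 bases in the HP1a knockdown, against 533 and 531 bases in the wild type (p = 0.333 by the same exact test). Of all peak bases, 34.6% and 37.4% lay in protein-coding gene bodies with 1 kb flanks in the HP1a knockdown, against 38.5% and 40.4% in the wild type (p = 0.333 by the same exact test). Gene bodies make up 43.1% of the autosomal length, so all 4 libraries were poorer in gene bodies than the genome, and the knockdown libraries more so.

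Whether HP1b covered less or more of the genome depended on which peaks were counted. The ratio of covered bases, HP1a knockdown over wild type, was 0.899 for the whole lists. It was 1.11 when each list was limited to the same number of its strongest peaks, and 1.05 without replicate 1 of the knockdown. Among strong peaks, with a −log10 p of 4 or more, the knockdown libraries covered 27.2 and 48.0 Mb, against 16.4 and 25 Mb in the wild type, a ratio of 1.82. Those strong peaks numbered 33393 and 57660 in the HP1a knockdown and 26764 and 38445 in the wild type. The lists therefore gave no direction for total HP1b coverage, whereas the number of wide peaks was higher in both knockdown libraries under each of these settings.

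**Figure D1:**
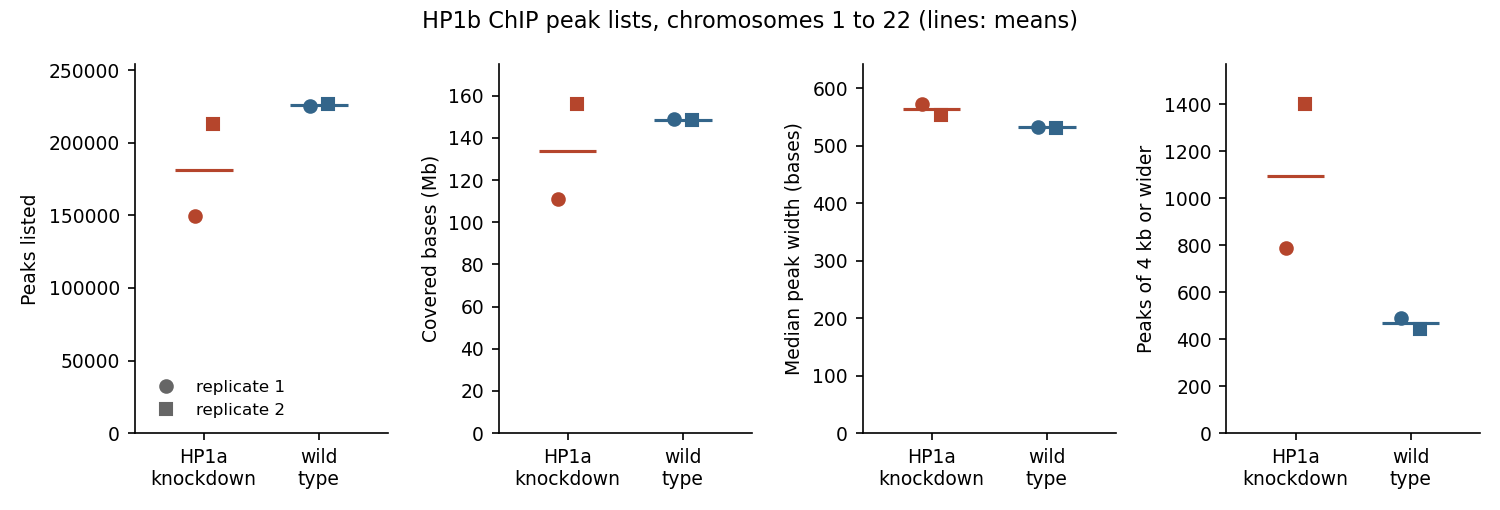
The 4 HP1b peak lists on chromosomes 1 to 22, with number of peaks, covered bases (Mb), median peak width (bases) and number of peaks of 4 kb or wider. Circles are replicate 1, squares replicate 2 and lines the mean of each group. The HP1a knockdown has 789 and 1401 wide peaks and the wild type 490 and 444, whereas covered bases overlap.

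Peaks of replicate libraries met each other only in part, which bounds what a lost or gained peak can show. The covered bases shared by 2 libraries, as a percentage of the bases covered by either (the Jaccard index), came to 19.5% for the knockdown libraries and 15.04% for the wild-type libraries. The 4 pairs of a knockdown and a wild-type library gave 13.7 to 15.1%, which takes in the value of the wild-type pair. Of the peaks of wild-type replicate 1, 26.3% and 33.2% met a peak of knockdown replicates 1 and 2, and 35.0% met a peak of wild-type replicate 2. At the level of single peaks the wild-type libraries thus differed from each other about as much as from the knockdown.

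The peaks of the 4 lists were merged into 499512 regions, of which 29910 (5.99%) were kept, 17266 (3.46%) gained and 26517 (5.31%) lost. The other 85.2% were listed in another combination of libraries. Gained and lost regions were narrower than kept ones, with median widths of 854 bases (gained), 884 bases (lost) and 2124 bases (kept). With only the strong peaks (−log10 p of 4 or more), gained regions outnumbered lost ones, 5267 against 1553, and with lists of equal length there were 18703 gained and 13097 lost. Without knockdown replicate 1 or 2, where a peak in the remaining library was enough, there were 103931 or 66638 gained and 34369 or 41162 lost regions. Without wild-type replicate 1 or 2 there were 28318 or 28968 gained and 128812 or 129179 lost regions. Neither class can thus be called the larger.

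Strong wild-type regions were more often still listed in the HP1a knockdown than weak ones. Of 78665 regions listed in both wild-type libraries, 38.0% had a peak in both knockdown libraries, 28.3% in 1 of them and 33.7% in neither. These regions were put into 10 classes of equal size by their deposited fold enrichment in the weaker of the wild-type libraries. In the lowest class, with a median fold of 2.63, 15.7% were listed in both knockdown libraries and 55.0% in neither. In the highest class, with a median fold of 3.39, 67.5% were listed in both and 12.3% in neither. Conversely, of 69463 regions listed in both knockdown libraries, 43.1% had a peak in both wild-type libraries and 24.9% in neither.

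HP1b regions where HP1a itself had been listed in wild type were kept more often in the HP1a knockdown than other HP1b regions. Both wild-type HP1a libraries had a peak in 13436 of the 78665 regions, and 63.5% of these were listed in both HP1a knockdown libraries, against 32.8% of the 65229 other regions. The shares listed in neither knockdown library were 14.6% with wild-type HP1a and 37.6% without. The difference in the kept share was positive in each class of fold, with 27.8% against 13.9% in the lowest class and 87.8% against 57.4% in the highest. Over the 4 HP1b libraries, both wild-type HP1a libraries met 2.70% of gained, 7.41% of lost and 28.5% of kept regions. Among regions of 1 to 2 kb, they met 3.24% of gained, 10% of lost and 18.5% of kept regions. Widths within this band were not compared between the classes, and the classes of fold were not matched for width. Kept regions were wider than lost ones (medians of 2124 and 884 bases), and a wider region has more room to meet an HP1a peak. The part that width has in the difference in the kept share was not tested. Left-out libraries, equal list lengths, a 50% overlap and the strong peaks kept the sign of this difference, which was between 19.4 and 40.2 percentage points.

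**Figure D2:**
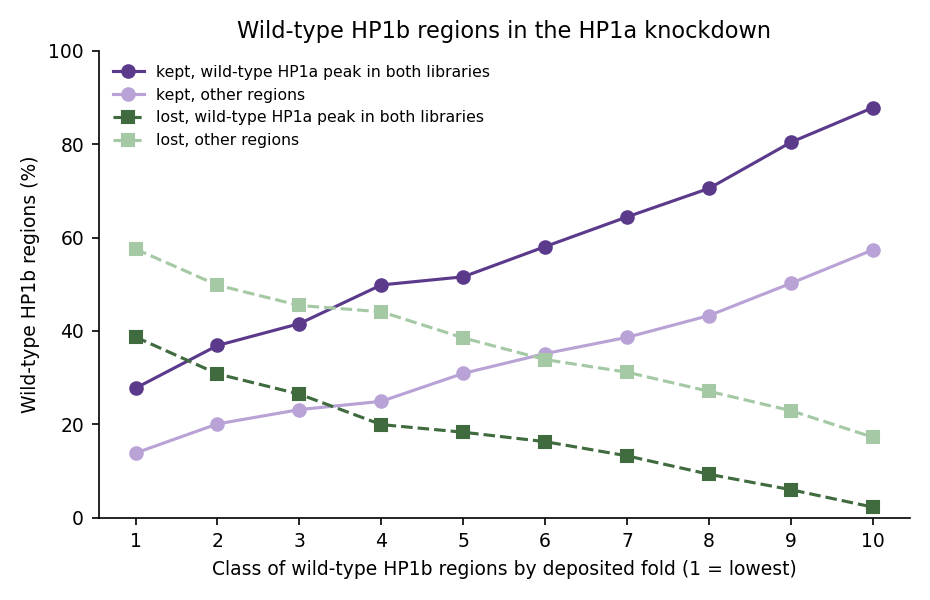
Regions with an HP1b peak in both wild-type libraries, in 10 classes of equal size by their deposited fold enrichment (horizontal axis, 1 is the lowest). The vertical axis gives the percentage kept, with a peak in both HP1a knockdown libraries (circles), and lost, with a peak in neither (squares), for regions with a wild-type HP1a peak in both libraries (dark) and for the others (light). The kept share is higher with HP1a in every class, at 87.8% against 57.4% in the highest.

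The regions with the highest fold among those gained and lost were 171 to 253 bases wide, below the median peak width of each list. The strongest gained region, at chr8:106108725-106108977 and 161201 bases from OXR1, had folds of 6.70 and 6.45 in the HP1a knockdown and no peak in the wild type. The gained region at chr19:37742970-37743198, inside the zinc finger gene ZNF573, had folds of 4.28 and 4.08 in the knockdown. Among lost regions, chr7:64326297-64326505 inside ZNF736 had no peak in the HP1a knockdown and folds of 4.96 and 5.25 in the wild type. The lost region chr5:178884711-178884881 inside ZNF354B had folds of 4.80 and 4.84 in the wild type. Regions inside C2H2 zinc finger genes, whose clusters are a known site of HP1 binding, thus stood in both classes.

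At the scale of chromosomes the distribution of HP1b peak bases changed in both directions. The shares of 4 of 22 chromosomes (18.2%) rose in the HP1a knockdown and those of 7 (31.8%) fell (limma, adjusted p below 0.05). Chromosome 19, which is rich in genes and zinc finger clusters, held 5.43% and 5.46% of peak bases in the HP1a knockdown, against 4.09% and 4.21% in the wild type. This is a log2 change of 0.39 (SE 0.03; limma adjusted p = 0.0020). Among the strong peaks the change of chromosome 19 had the opposite sign, a log2 change of -0.25. Chromosome 11 held 5.10% and 4.88% in the HP1a knockdown, against 4.11% and 3.99% in the wild type (log2 change 0.30, limma adjusted p = 0.0035). Chromosomes 7 and 12 also rose, with log2 changes of 0.22 and 0.24. The fall of chromosome 20 was the largest, to 2.55% and 2.62% in the HP1a knockdown, against 3.21% and 3.14% in the wild type (log2 change -0.30, limma adjusted p = 0.0035). Chromosomes 3, 6, 9, 14, 15 and 21 also fell, with log2 changes between -0.29 and -0.13. In each of these 11 chromosomes, chosen by the test on the same libraries, the groups did not overlap. They did not overlap on chromosomes 16 and 18 either, whose shares did not pass, so a lack of overlap does not set the 11 apart. Shares sum to 100% and are not independent, and 1 rise and no fall passed without wild-type replicate 1, and 1 rise and 2 falls without wild-type replicate 2.

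**Figure D3:**
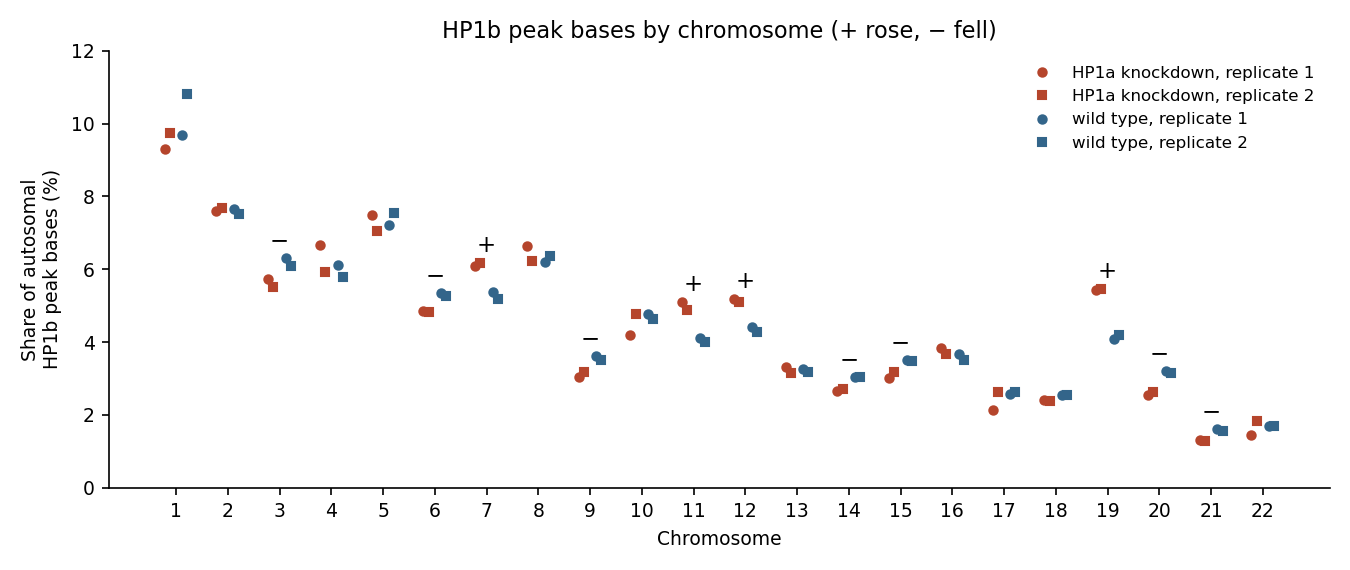
Share of autosomal HP1b peak bases (%) on each chromosome in the 2 HP1a knockdown libraries (red) and the 2 wild-type libraries (blue), with circles for replicate 1 and squares for replicate 2. A plus or minus marks the 4 chromosomes whose share rose and the 7 whose share fell (limma, adjusted p below 0.05). Chromosome 19 holds 5.43% and 5.46% in the knockdown and 4.09% and 4.21% in the wild type.

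Within chromosomes, HP1b rose most often in bins near the chromosome ends and fell most often in gene-dense bins far from them. In bins of 1 Mb, the share of a library's peak bases was compared, which removes the difference in total coverage. Of 2738 bins, 203 (7.41%) rose in the HP1a knockdown and 365 (13.3%) fell (limma, adjusted p below 0.05). The median log2 change of all bins was -0.10, and it was -0.21 without the scaling to total coverage, when 48 bins rose and 45 fell. On that unscaled coverage, both knockdown libraries lay above both wild-type libraries in 386 bins (14.1%) and below them in 1272 (46.5%). The counts of rises and falls were 313 and 524 without knockdown replicate 1, 416 and 799 without knockdown replicate 2, 124 and 129 without wild-type replicate 1, and 97 and 66 without wild-type replicate 2. With only the strong peaks (−log10 p of 4 or more), 69 of the 203 bins that rose also rose, and 30 of the 365 that fell also fell.

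The strongest rise was on chromosome 2, in the bin at 2 to 3 Mb that holds part of MYT1L, a transcription factor gene of neurons. HP1b peaks covered 19.95% and 28.8% of this bin in the HP1a knockdown, against 3.78% and 2.80% in the wild type (log2 change 2.48, SE 0.15, limma adjusted p = 1.73e-05). On chromosome 11, the bin at 131 to 132 Mb, with the neuronal adhesion molecule gene NTM, was covered to 36.2% and 38.8% in the knockdown, against 9.88% and 8.21% in the wild type (log2 change 2.01). On chromosome 12, the bin at 128 to 129 Mb with TMEM132C and GLT1D1 was covered to 38.1% and 44.4% in the knockdown, against 10.2% and 11.2% in the wild type (log2 change 1.93). The other 5 of the 8 named rises lay at 129 to 131 Mb of chromosome 12, with TMEM132D and RIMBP2, and at 3 to 6 Mb of chromosome 1, with PRDM16 and AJAP1. All 8 lay between 2.50 and 5.50 Mb from a chromosome end.

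The strongest fall was at 156 to 157 Mb of chromosome 1, a bin with 39 genes, among them LMNA, which encodes lamins A and C of the nuclear lamina. Its HP1b coverage was 0.467% and 2.10% in the HP1a knockdown, against 5.87% and 11.5% in the wild type (log2 change -1.69, SE 0.27, limma adjusted p = 0.0033). On chromosome 20, the bin at 50 to 51 Mb, with the phosphatase gene PTPN1, was covered to 0.275% and 1.42% in the knockdown, against 4.74% and 7.19% in the wild type. On chromosome 5, the bin at 149 to 150 Mb that holds PPARGC1B, a coactivator of mitochondrial genes, was covered to 2.004% and 3.62% in the knockdown, against 9.22% and 12.5% in the wild type. Other named falls lay on chromosome 1 (at 201 to 202 Mb, with the desmosome gene PKP1, and at 205 to 206 Mb), on chromosome 22 and on chromosome 3, at 71 to 72 Mb, with the transcription factor gene FOXP1. All 8 strongest falls lay at least 13.8 Mb from a chromosome end, but so did most bins, since 1951 of the 2738 fitted lay beyond 20 Mb. Each of the 16 bins with the strongest rises and falls kept its direction under every alternative tried for 1 Mb bins. Their choice as the largest changes in these same libraries favours this. The bins that did not pass were all falls, 5 with the strong peaks and 5, the bin with LMNA among them, with no filter. All 8 named rises passed in both of these settings.

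Bins within 5 Mb of a chromosome end had a median log2 change of 0.28, with 72 that rose and 13 that fell of 209. At 5 to 10 Mb the median was 0.06, at 10 to 20 Mb it was -0.15, and beyond 20 Mb it was -0.12, with 68 rises and 269 falls of 1951 bins. The outermost 5 Mb held 11.8% and 13.2% of all HP1b peak bases in the HP1a knockdown, against 7.28% and 7.71% in the wild type. Coverage of those bins was 6.70% and 10.5% in the knockdown and 5.52% and 5.84% in the wild type, so that the groups did not overlap on this scale either. Of 39 chromosome ends, 31 had a median above 0. Every bin rose at 3 ends, namely the 6 outermost bins of the long arm of chromosome 12 and the 5 outermost of the long arm of chromosome 10 and of the short arm of chromosome 8. At the short arm of chromosome 20, 3 of 5 bins fell.

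**Figure D4:**
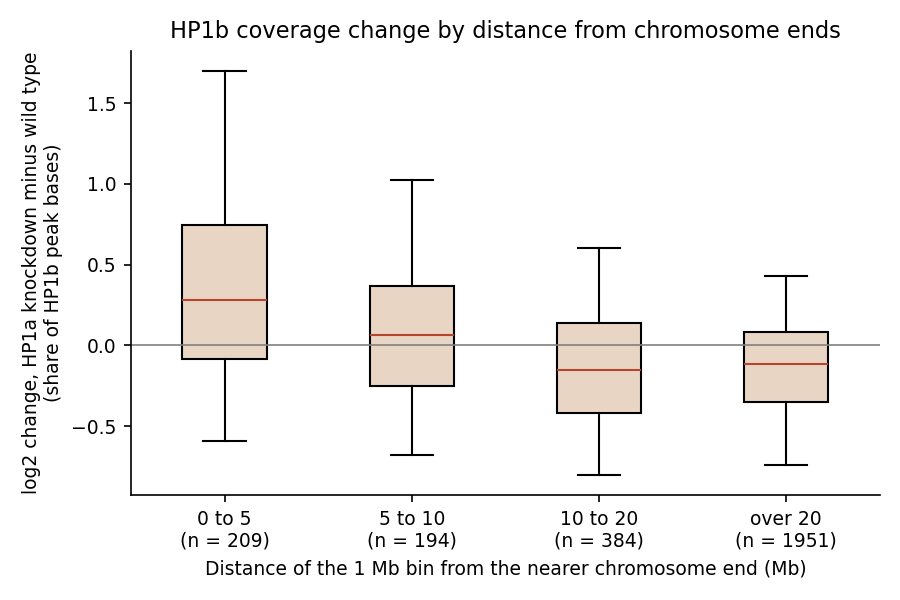
Log2 change of the share of HP1b peak bases in 1 Mb bins, HP1a knockdown minus wild type (vertical axis), by distance of the bin from the nearer chromosome end (horizontal axis, Mb). Boxes span the quartiles, red lines are medians, whiskers reach the 5th and 95th percentiles, and n is the number of bins. The median is 0.28 in the outermost 5 Mb and below 0 beyond 10 Mb.

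Some changed bins adjoined each other, and 72 of the 203 rises and 76 of the 365 falls stood in runs of 4 bins or longer. The longest run of rises covered 125 to 134 Mb of chromosome 12, 9 bins with 44 genes, in which HP1b coverage was 17.3% and 22.3% in the HP1a knockdown, against 7.28% and 6.79% in the wild type. Other runs of rises lay at 131 to 136 Mb of chromosome 11 (28.7% and 31.7% in the knockdown, against 8.23% and 7.45% in the wild type) and at 153 to 159 Mb of chromosome 7 (12.1% and 18.2% in the knockdown, against 5.24% and 5.29% in the wild type). Not all runs were at ends. At 67 to 73 Mb of chromosome 7, which holds the long gene AUTS2, coverage was 28.9% and 34.7% in the knockdown, against 21.2% and 20.4% in the wild type. At 28 to 33 Mb of chromosome 19 it was 24.1% and 33.6% in the knockdown, against 16.7% and 17.7% in the wild type. The longest run of falls covered 62 to 72 Mb of chromosome 15, 10 bins with 82 genes, with 2.15% and 4.30% in the knockdown, against 6.42% and 7.45% in the wild type. Runs of falls at 44 to 52 and 34 to 41 Mb of chromosome 20 held 103 and 75 genes, and a run at 150 to 157 Mb of chromosome 1 held 233.

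Gene density went with the direction of change. Bins without a protein-coding gene had a median log2 change of 0.01, with 31 rises and 7 falls of 338. Bins with 16 or more genes had a median of -0.23, with 19 rises and 73 falls of 309. Beyond 20 Mb from an end, bins with 16 or more genes had no rise and 58 falls of 166 and a median of -0.40. Within 5 Mb of an end, bins with as many genes had 12 rises and 4 falls of 56 and a median of 0.25. The opposite signs of these gene-dense bins were not tested against each other. The 685 fitted bins with the most wild-type HP1a coverage had 60 rises and 197 falls (median -0.26), and the 685 with the least had 65 rises and 31 falls (median 0.04). Bins rich in wild-type HP1a thus fell more often, whereas single HP1b regions with wild-type HP1a were kept more often. These measures differ in kind and were not tested against each other.

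HP1a ChIP in the HP1b knockdown was set against HP1a ChIP in wild type, which shares no library with the HP1b comparison. In shares of peak bases, the HP1a comparison resembled that of HP1b by distance from an end but not by gene density. The outermost 5 Mb held 17.2% and 16.4% of HP1a peak bases in the HP1b knockdown, against 7.18% and 6.62% in the wild type. HP1a peaks covered less of those bins, however, at 0.825% and 0.769% in the HP1b knockdown, against 2.44% and 1.93% in the wild type. Unscaled HP1a coverage near the ends was thus lower in the knockdown, whereas that of HP1b was higher. Chromosome 19 held 7.40% and 7.09% of HP1a peak bases in the HP1b knockdown, against 3.04% and 3.12% in the wild type. Beyond 20 Mb from an end, the share of HP1a peak bases was 57.2% and 57.6% in the HP1b knockdown, against 69.2% and 70.2% in the wild type. Bins with 16 or more genes, where HP1b more often fell, held 17.6% and 16.1% of HP1a peak bases in the HP1b knockdown, against 11.2% and 9.87% in the wild type. Such bins beyond 20 Mb from an end held 6.86% and 6.32% of HP1a peak bases in the HP1b knockdown, against 6.73% and 5.77% in the wild type, whereas their share of HP1b peak bases was 3.81% and 4.77% in the HP1a knockdown, against 5.81% and 6.48% in the wild type. Chromosome 20, with the largest fall of HP1b, held 2.84% and 3.10% of HP1a peak bases in the HP1b knockdown, against 2.85% and 2.84% in the wild type, and these groups overlapped. The HP1a lists of the HP1b knockdown were short, with 18658 and 18071 peaks, against 127402 and 109345 in the wild type. The part that list length has in those shares was not tested.

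Over protein-coding gene bodies with 1 kb flanks, the strongest differences were higher HP1b coverage at genes such as MYT1L, RIMBP2 and SHANK2 and lower coverage at genes such as CTIF, MGAT5 and LDLRAD3, but no gene passed the test. Of 12516 genes fitted out of 19126, 0 rose (0%) and 0 fell (0%) by limma, and the lowest adjusted p was 0.138. At an unadjusted p below 0.05, 634 genes (5.07%) were higher and 2553 (20.4%) lower in the HP1a knockdown, with a median log2 change of -0.49 over all genes fitted. The counts that passed were 213 higher and 641 lower without knockdown replicate 1, 241 and 1631 without knockdown replicate 2, 81 and 131 without wild-type replicate 1, and 75 and 86 without wild-type replicate 2. Genes are named by the size of the moderated t in these same libraries. The values describe the libraries, and the distance between the groups at the named genes is no separate result. SRRM4, a splicing regulator of neurons at chr12:118981541-119163051, was covered to 32.4% and 32.0% in the HP1a knockdown, against 5.42% and 5.43% in the wild type. RIMBP2, a presynaptic scaffold at chr12:130396133-130716299, was covered to 25.2% and 38.6% in the knockdown, against 3.52% and 4.89% in the wild type. SHANK2, a postsynaptic scaffold at chr11:70467854-71253234, was covered to 31.6% and 50.3% in the knockdown, against 10.9% and 12.6% in the wild type. In all 3 genes the lowest knockdown library lay well above the highest wild-type library, which the choice by moderated t favours.

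The other genes of higher coverage were MYT1L, the receptor gene EPHB1, the potassium channel subunit gene DPP6, the postsynaptic gene DLGAP2, and GLT1D1. Their log2 changes were between 1.83 and 3.03, and in none did the groups overlap, which the choice by moderated t again favours. MYT1L, RIMBP2, GLT1D1, DPP6 and DLGAP2 lie in runs of bins that rose near chromosome ends, so they are the same places as those rises. SRRM4, SHANK2 and EPHB1 lie outside the runs of 4 bins or longer. Among genes of lower coverage, LDLRAD3, which encodes a receptor of the LDL receptor family at chr11:35944062-36232136, was covered to 1.97% and 2.06% in the HP1a knockdown, against 13.2% and 13.1% in the wild type. MGAT5, an enzyme of N-glycan branching at chr2:134119935-134454621, was covered to 1.07% and 1.19% in the knockdown, against 8.001% and 8.78% in the wild type. CTIF, a translation factor at chr18:48539031-48863217, was covered to 1.42% and 2.02% in the knockdown, against 9.74% and 9.69% in the wild type. SH3PXD2A, a scaffold of invadopodia, was covered to 0.383% and 1.04% in the knockdown, against 8.30% and 8.35% in the wild type. FHOD3, SYN3, THSD4 and EPB41L1 completed the named genes of lower coverage, with log2 changes between -4.12 and -1.58. No call at these genes rests on the adjusted test, whose adjusted p was between 0.138 and 0.139 for the 16 genes.

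**Figure D5:**
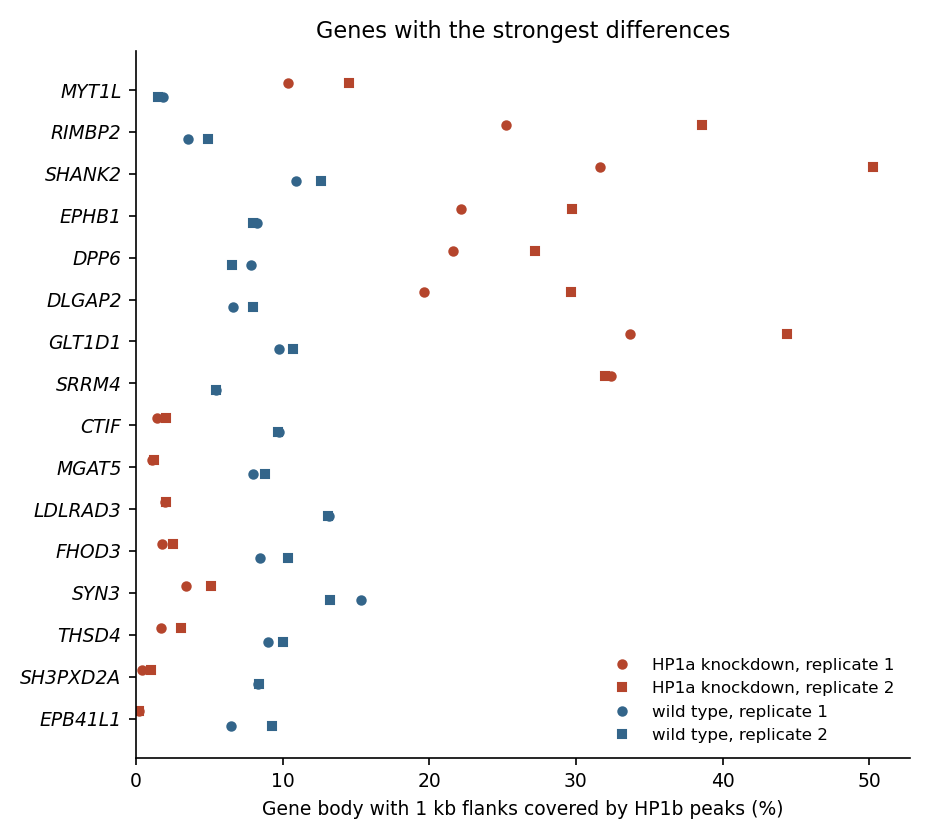
HP1b coverage (% of the gene body with 1 kb flanks) in the 2 HP1a knockdown libraries (red, upper row of each gene) and the 2 wild-type libraries (blue, lower row) for the 8 genes of higher and the 8 of lower coverage with the largest moderated t. Circles are replicate 1 and squares replicate 2. The groups do not overlap in any of these genes, which the choice by moderated t favours, and none passed the adjusted test.

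The genes of the HP1 family itself had little HP1b coverage. CBX1, which encodes HP1β, was covered to 0% and 0.524% in the HP1a knockdown, against 1.89% and 6.55% in the wild type (limma adjusted p = 0.195). CBX5, the gene of the knocked-down HP1α, was covered to 0% and 1.97% in the knockdown and 0% and 1.31% in the wild type. CBX3, which encodes HP1γ, had a peak only in wild-type replicate 1, over 2.70% of the gene.

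By the presence of any peak, 198 genes (1.04%) were gained in the HP1a knockdown, 1530 (8%) were lost and 6703 (35%) kept. Gained and lost genes were short, with median lengths of 11.2 kb (gained) and 20.9 kb (lost), against 84.0 kb for kept genes and 24.5 kb for all genes. Length bears on these classes by definition, since 1 peak anywhere in a gene was enough. Of 303 genes of 500 kb or longer, 302 were kept, 0 lost and 0 gained. With the strong peaks the counts were 329 gained and 337 lost genes. Gained and lost genes numbered 849 and 1835 without knockdown replicate 1, 338 and 3594 without knockdown replicate 2, 430 and 2754 without wild-type replicate 1, and 524 and 2465 without wild-type replicate 2. The gained genes with the highest folds included the C-type lectin receptor genes CLEC5A and CLEC6A and, in the last Mb of chromosome 10, SCART1, SYCE1 and MTG1. SYCE1, of the synaptonemal complex, was covered to 2.60% and 16.5% in the knockdown. The lost genes with the highest folds included SLC3A2, a subunit of amino acid transporters, DDIT3, a transcription factor of the endoplasmic reticulum stress response, and RNF216, a ubiquitin ligase. DDIT3 had no peak in the HP1a knockdown and was covered to 2.88% and 12.2% in the wild type. The same peaks also met its neighbours MBD6 and LOC128125814, so that these 3 genes are 1 place.

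Gene groups differed in how their coverage stood beside that of all genes, whose median log2 change was -0.49. No member of any of the 20 lists passed the adjusted test. Protocadherin, brain, fragile site, olfactory receptor and collagen genes had a median above that of all genes, and TGF-beta and BMP genes a median below it, here and under each of 10 alternatives. Counts at an unadjusted p below 0.05 are to be read beside the 5.07% higher and 20.4% lower among all fitted genes. Length also went with the change: the median was -0.21 for genes shorter than 10 kb, -0.55 at 10 to 50 kb, -0.60 at 50 to 200 kb, -0.35 at 200 to 500 kb and -0.01 for genes of 500 kb or longer. Beside genes of their own length class, the medians of protocadherin, olfactory receptor and collagen genes were 1.25, 0.66 and 0.54 higher on the log2 scale, and that of TGF-beta and BMP genes differed by -0.27. The clustered protocadherins, adhesion molecules of neurons encoded in tandem on chromosome 5, had a median log2 change of 0.71, and 26 of 52 fitted members were higher at an unadjusted p below 0.05 and 1 was lower, against 5.07% and 20.4% of all fitted genes. Their mean coverage was 15.7% and 20.9% in the HP1a knockdown, against 12.0% and 12.4% in the wild type. Many protocadherin genes overlap and share their last exons, so the members are not separate places. PCDHB11 was covered to 47.9% and 55.1% in the knockdown, against 47.4% and 25.5% in the wild type, and its groups lay apart by under 1 percentage point.

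Brain genes had a median log2 change of 0.26, with 6 of 26 higher and 1 lower at an unadjusted p below 0.05, against 5.07% and 20.4% of all fitted genes. Of the 26, 19 are 500 kb or longer. The median stood 0.75 above that of all genes but 0.33 above genes of the same length class. OPCML, a neuronal adhesion molecule at chr11:132414981-133532501, was covered to 32.6% and 32.0% in the HP1a knockdown, against 9.41% and 8.79% in the wild type. This gene lies in the run of rises at 131 to 136 Mb of chromosome 11. RBFOX1, a neuronal splicing factor, was covered to 31.2% and 32.4% in the knockdown, against 19.8% and 18.8% in the wild type.

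Genes of common fragile sites had a median log2 change of 0.29, with 4 of 21 higher and 2 lower at an unadjusted p below 0.05, against 5.07% and 20.4% of all fitted genes. Of the 21, 19 are 500 kb or longer, and the median stood 0.78 above that of all genes but 0.30 above genes of the same length class. PTPRN2 at the end of the long arm of chromosome 7 was covered to 14.8% and 29.4% in the HP1a knockdown, against 5.66% and 5.85% in the wild type. AUTS2 was covered to 24.1% and 23.4% in the knockdown, against 18.0% and 17.3% in the wild type. Collagen chain genes had a median of 0.04, and COL22A1 stood out among them with 78.3% and 77.6% in the knockdown, against 42.8% and 41.8% in the wild type. The median of olfactory receptor genes was 0.38 over the 195 of 391 that could be fitted.

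The C2H2 zinc finger genes of chromosome 19, the most heavily covered list, had a mean coverage of 23.7% and 28.5% in the HP1a knockdown and 27.0% and 26.2% in the wild type, so that the groups overlapped. Their median log2 change was 0.08, which is 0.57 above all genes, but among the strong peaks it was 0.36 below all genes. ZNF274, a zinc finger protein that recruits a histone methyltransferase, was covered to 66.7% and 79.4% in the knockdown, against 55.2% and 63.6% in the wild type. ZNF454 on chromosome 5 was covered to 80.1% and 78.3% in the knockdown, against 37.9% and 43.5% in the wild type. ZNF134 and ZNF7 were lower in both knockdown libraries, ZNF7 with 57.3% and 61.2% against 72.2% and 77.2% in the wild type. For zinc finger genes elsewhere the median was 0.40 above all genes, and it too was below all genes, by 0.15, among the strong peaks.

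Genes of the TGF-beta and BMP pathway, a pathway that drives epithelial to mesenchymal transition in this line, had a median log2 change of -0.85, with none higher and 8 of 30 lower at an unadjusted p below 0.05. The share of lower members is near the 20.4% of all fitted genes, so the count is not a result about the pathway. TGFB2, a ligand, was covered to 0.806% and 5.77% in the HP1a knockdown, against 14.7% and 15.7% in the wild type. SMAD6, an inhibitor of the pathway, was covered to 1.47% and 5.23% in the knockdown, against 11.7% and 13.4% in the wild type. BMP6, another ligand, was covered to 3.59% and 10.4% in the knockdown, against 8.23% and 8.12% in the wild type, and its groups overlapped. Epithelial and basal adhesion genes had a median 0.22 below that of all genes, which was 0.65 above it among the strong peaks. Of 16 fitted members none was higher and 4 were lower at an unadjusted p below 0.05, a share near that of all fitted genes. The desmosome gene PKP1 was covered to 2.03% and 10.3% in the knockdown, against 22.4% and 32.1% in the wild type. The basal keratin gene KRT14 was covered to 0% and 15.1% in the knockdown, against 23.7% and 31.2% in the wild type (limma adjusted p = 0.312). GRHL2, an epithelial transcription factor, was covered to 5.74% and 7.19% in the knockdown, against 7.44% and 7.23% in the wild type, a log2 change of -0.02. HOX genes had a median of -1.06 over only 11 of 39 members, which was 0.57 below all genes. With no filter it stood above them, but most of the members then counted had a peak in fewer than 2 libraries. HOXA11 was lost, whereas HOXD3 was covered to 9.58% and 18.1% in the knockdown, against 0.789% and 3.69% in the wild type. For the remaining lists, among them luminal breast, liver, interferon, cohesin and ribosomal protein genes, the median stood between 0.16 below and 0.37 above that of all genes. Each of these differences changed sign under at least 1 alternative.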

How the data were processed

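Chromatin of MCF10A cells was mapped by HP1b ChIP-seq in 2 HP1a knockdown and 2 wild-type libraries. Trimmomatic, Bowtie2, SAMtools, the peak caller MACS3 and the build hg38 are named in the submitters' processing notes, without versions, settings or mention of an input library. The authors deposited, for each peak, a fold enrichment as a ratio and a −log10 p. The lowest −log10 p was 2.72 and 2.57 in the HP1a knockdown lists and 2.55 and 2.54 in the wild-type lists. Read counts are not part of the deposited lists, so the depth is unknown and no counting interval was set, and a place without a peak may still hold HP1b.

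Peaks on chromosomes 1 to 22 were used, 93.3 to 94.1% of each list. Overlapping peaks of a list were merged. Regions were peaks of the 4 lists merged where they overlapped by 1 base or more, and widths, Jaccard indices and classes were computed from them. Relative coverage was a feature's peak bases divided by the library's peak bases in Mb. Bins of 1 Mb and RefSeq protein-coding genes (GRCh38.p14, with 1 kb flanks) that 2 or more of the 4 libraries listed were fitted with limma 3.58.1 (R 4.3.3; variance trend) after adding a pseudocount (131 for bins, 2.24 for genes; the 10th percentile of nonzero values) and taking log2. A log2 change of a feature with low coverage is therefore understated. Chromosome shares were fitted as log2 percent with no pseudocount and no trend. P-values were adjusted by Benjamini-Hochberg over all features, with a threshold of 0.05. Totals were compared by exact permutation tests. The limma script was tested on simulated data.

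Named bins were the 8 largest rises and falls past the threshold with a peak in all 4 libraries, and named genes those with the largest moderated t, the lost and gained genes and regions with the highest fold in the weaker library, CBX1, CBX3 and CBX5, and the most covered genes of each list, 3 at most; some of these are not reported here. The comparison, the members and the 20 gene lists were chosen with earlier results of these data known.

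Alternatives used only peaks with −log10 p of 4 or more, the same number of top peaks in each library, 50% overlap, no scaling, a pseudocount multiplied by 4, no filter, coverage weighted by fold, a replicate block, all 8 libraries in 1 fit, 250 kb bins, no flank, and 3 of the 4 libraries at a time. The settings tried for regions with wild-type HP1a, for base overlap and for bins near chromosome ends, and the length classes beside gene lists, were added after seeing the data. Promoter windows on chromosome 8 were not analysed here. No genome was used, so peak sequences were not read.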

Additional observations from a re-analysis of the deposited data

How the results depend on the processing

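With only strong peaks (−log10 p of 4 or more), the ratio of the HP1a knockdown to the wild type turned round for the number of peaks (1.40) and covered bases (1.82), and covered bases also did with lists of equal length (1.11). Over libraries left out in turn the ratio of covered bases was 0.748 to 1.05. With the strong peaks there were 1370 kept, 1553 lost and 5267 gained regions, 2007 kept, 337 lost and 329 gained genes, and 1 kept, 9 lost and 18 gained promoter windows. Lists of equal length gave 19913 kept and 13097 lost regions, 315 gained genes and 39 lost windows. A 50% overlap gave 3865 kept and 17413 lost regions, and 5 kept and 39 lost windows. Leaving out a library gave 34369 to 129179 lost and 28318 to 103931 gained regions, 1835 to 3594 lost and 338 to 849 gained genes, and 26 to 46 kept, 93 to 652 lost and 75 to 416 gained windows.

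Rises and falls of bins numbered 78 and 54 with the strong peaks, 48 and 45 with no scaling, 70 and 30 with no filter, 83 and 41 with all 8 libraries in 1 fit, 743 and 1279 of 10751 bins of 250 kb, and 97 to 416 and 66 to 799 with a library left out. Genes that passed numbered 9 higher and 1 lower with lists of equal length, and 75 to 241 higher and 86 to 1631 lower with a library left out, where the lone library is assumed to vary like the other group. Chromosome shares gave 1 rise and 1 fall with the strong peaks, and 1 to 5 rises and 0 to 9 falls with a library left out. Chromosome 19 was -0.25 on the log2 scale with the strong peaks. The cause of these differences was not tested. The difference in the kept share with and without wild-type HP1a, the higher base overlap of the knockdown pair than of each pair across groups, and the higher median of bins within 5 Mb of an end kept their sign under each alternative tried for them. The wild-type pair overlapped more than the mean of the pairs across groups but, with the whole lists, lists of equal length and strong peaks alike, less than at least 1 of those pairs.

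The replicate block gave 320 rises and 615 falls of bins and 131 higher and 328 lower genes, and changed no count of chromosomes. Deviations of libraries with the same number correlated at 0.309 in bins and 0.0427 in genes. With only 2 pairs, and no label that ties the numbers to a shared day or culture, the numbers were not taken to pair the libraries.

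Depth is unknown, each group has 2 libraries whose peaks agreed only in part, and knockdown replicate 1 has the shortest list.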
